A study of Rattus norvegicus with 6 samples.

Results

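The genes of voltage-gated, potassium and chloride channels were followed across 3 rat populations of olfactory ensheathing cells (OECs), glia that enclose olfactory axons. They were all those whose single annotated symbol begins with Scn or Clcn followed by a digit, or with Kcn or Cacn. They number 120 of the 14371 genes with a single symbol on the arrays used. Of them 83 had a probe set on the Affymetrix array type U34A and 118 on the type RAE2.0, 81 of them on both. Total RNA of 3 populations was measured, each on 1 array of either type, so that every population has 2 arrays. TEG3 is a line selected as a clone from Wistar rat OECs of postnatal day 60 after transfection of a plasmid for SV40 large T antigen, so it stands for 1 clone. OEC Lp was a primary culture of Wistar rats at postnatal day 21 that had passed more than 50 population doublings. OEC Ep was a primary culture of the same age and strain after 1 week in vitro, with less than 3 doublings. The olfactory nerve layer was the source of all, and their medium held 3% serum, pituitary extract at 20 µg/ml and forskolin, an activator of adenylyl cyclase, at 2 µM. For both primary cultures the labels state a purity over 90% by immunocytochemistry. Each population gave 2 RNA pools of 3 cultures, and in OEC Ep each culture came from 1 rat.

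Voltage-gated sodium and calcium channels open when the membrane is depolarised, and carry action potentials and calcium entry in neurons and muscle. Potassium channels set the resting potential, and in glia they also take up potassium released by active axons. The Clcn family holds plasma membrane chloride channels and chloride-proton exchangers of endosomes and lysosomes.

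Most of the channel genes had low signals. A floor was set at the 40th percentile of all signals of an array type, which came to 128 for U34A and 168 for RAE2.0, and a signal at the floor has only an upper bound. On U34A, 47 of 83 channel genes (56.6%) exceeded the floor in at least 1 population, against 78.7% of all genes. On RAE2.0, 59 of 118 (50%) did, against 81.2% of all genes. Signals over 4 times the floor were seen for 12 channel genes on U34A (14.5%, against 47.4% of all genes) and for 10 on RAE2.0 (8.47%, against 58.6%). The share above the floor on U34A was 39.8% in TEG3, 37.3% in OEC Lp and 45.8% in OEC Ep, where all genes had 66.4%, 66.2% and 68.3%. On RAE2.0 it was 29.7% in TEG3, 34.7% in OEC Lp and 31.4% in OEC Ep, where all genes had 70.8%, 72.2% and 72.3%. The channel genes therefore stood below all genes in each population on both types.

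**Figure D1:**
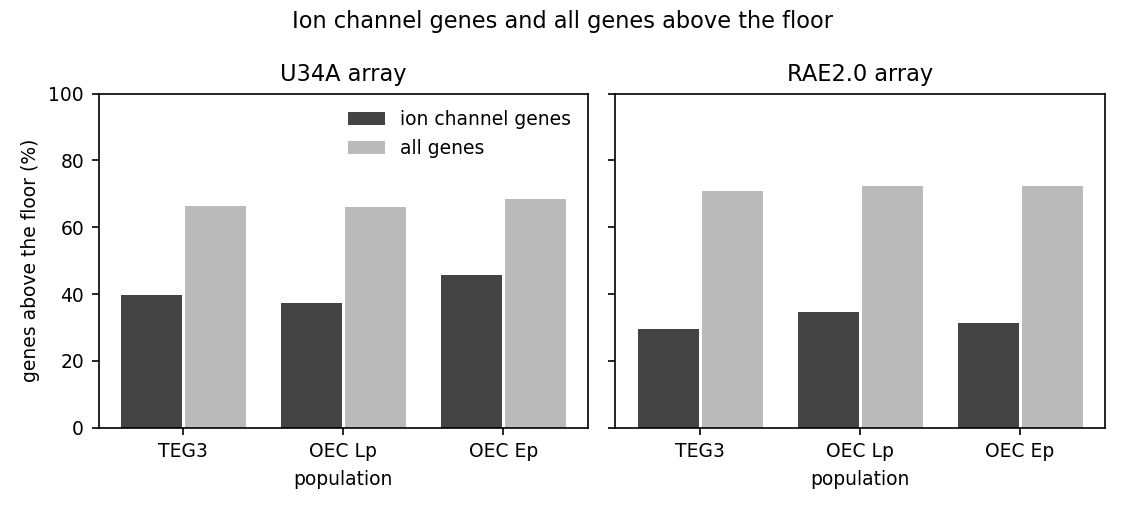
Share of genes with a probe set above the floor (y axis, percent) in each population (x axis) on U34A (left) and RAE2.0 (right), for the channel genes (dark bars) and for all genes with a single symbol (light bars). The dark bars lie between 29.7 and 45.8% and the light bars between 66.2 and 72.3%.

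In all, 24 channel genes exceeded the floor on both types, 35 on RAE2.0 alone, 23 on U34A alone and 38 on neither. Of all 14371 genes, 3131 exceeded it on both types, 8411 on RAE2.0 alone and 595 on U34A alone. Of the 23 on U34A alone, 22 also had a RAE2.0 probe set, which stayed at the floor in every population. Of the 35 on RAE2.0 alone, 15 had a U34A probe set at the floor. Only 7 genes were above the floor on all 6 arrays, namely Cacna1a, Cacna1c, Cacnb1, Cacnb3, Clcn3, Kcnh3 and Kcnk5. For Cacna1a on U34A, the probe set above the floor in OEC Ep was another than in TEG3 and OEC Lp. By subfamily, all 7 chloride channel and transporter genes exceeded the floor on at least 1 type. Among voltage-gated potassium channel pore subunits 23 of 33 did, and among calcium channel auxiliary subunits 8 of 14. For all 6 arrays and for at least 1 type, the like shares over all genes were not computed. These counts therefore cannot be read as a trait of channel genes. Genes at the floor on every array that measured them included several known from neurons or glia elsewhere, such as Kcna1, Kcnj2, Kcnk1, Kcnk2, Kcnma1, Kcnn4 and Scn1a.

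**Figure D2:**
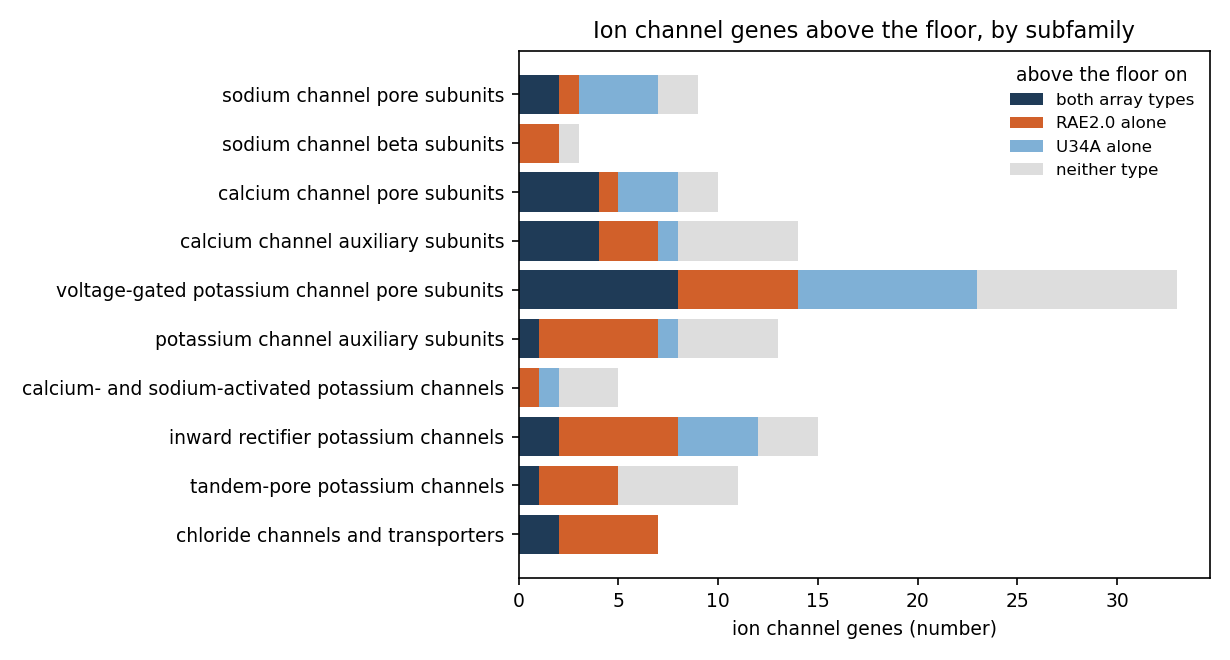
Number of channel genes (x axis) in each of 10 subfamilies (y axis), split by the array types on which the gene exceeded the floor in at least 1 population. The bar of the voltage-gated potassium channel pore subunits is the longest, with 33 genes, of which 10 exceeded the floor on neither type, and that of the chloride channels and transporters has no such gene.

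The design sets a long culture (OEC Lp) and an immortalised line (TEG3) against a short culture (OEC Ep). TEG3 also differs in donor age (postnatal day 60 against 21) and is a selected clone. Immortalisation, donor age, clonal selection and culture history cannot be told apart for it. Of the 24 genes on both types, limma called 2 in OEC Lp against OEC Ep at a Benjamini-Hochberg adjusted p under 0.05 over 3131 genes, 1 higher and 1 lower. Over all genes 6.13% were called, 2.11% higher and 4.02% lower, so the count among channel genes (8.33%) was near that background. At an unadjusted p under 0.05 limma had 2 of 24 channel genes (8.33%) and 19.5% of all genes. Scn7a fell and Kcns3 rose. For TEG3 against OEC Ep, limma called 1 of 24, which was Scn7a again and lower, where 4.34% of all genes were called, 0.639% higher and 3.7% lower. At an unadjusted p under 0.05 there were 2 (8.33%), against 21.7% of all genes. For TEG3 against OEC Lp, limma called 0 of 24, where 1.21% of all genes were called, 0.192% higher and 1.02% lower. Here 2 had an unadjusted p under 0.05 (Kcns3 and Cacna1c, 8.33%), against 15.4% of all genes. Both comparisons against OEC Ep share its arrays. How RNA pools were assigned to arrays is not given in the labels, and the p-values may therefore measure technical spread alone.

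Scn7a codes for Nax, an atypical sodium channel of glia and Schwann cells that responds to extracellular sodium rather than to voltage. Its signal on U34A was 144 in TEG3, 142 in OEC Lp and 3840 in OEC Ep, as the geometric mean of 2 probe sets. The probe sets had 17, 11 and 8623, and 162, 156 and 1710, in the same order of populations. On RAE2.0 its probe set had 3, 144 and 37440, where both lower values are under the floor of 168. Scn7a was thus high on both OEC Ep arrays and near or below the floor on the other 4, and all 3 probe sets showed this. In the fit, which averages both types with dim signals set to the floor, it was 77.8-fold lower in OEC Lp than in OEC Ep (log2 fold -6.28 ± 0.80 SE, n = 2 arrays each, limma adjusted p = 0.0162). In TEG3 it was 77.0-fold lower than in OEC Ep in the same fit (log2 fold -6.27 ± 0.80 SE, n = 2 each, limma adjusted p = 0.019). Signals of OEC Lp and TEG3 under the floor were raised to it, so both fitted folds are lower bounds in size. The size of the ratio differed between types, with log2 ratios for OEC Lp over OEC Ep of -4.76 on U34A and -7.80 on RAE2.0, and for TEG3 over OEC Ep of -4.73 and -7.80. The U34A probe set that exceeded the floor in all 3 populations, with 162, 156 and 1710, had a smaller ratio than either. Between TEG3 and OEC Lp the log2 fold was 0.01 ± 0.80 SE. Both calls were lost when any 1 of the 6 arrays was left out, and the log2 fold stayed between -7.81 and -4.74. Where a compared population keeps a single array, the fit cannot judge a call. Without an array of the population not compared, both compared populations keep 2 arrays. That is in effect a fit on the 4 arrays compared, which also lost both calls. Over all genes the 4-array fit called 41 in OEC Lp and 0 in TEG3 against OEC Ep. Both calls were also lost with no floor, no filter on dim probe sets or no replicate block (limma adjusted p from 0.155 to 0.25 in OEC Lp and from 0.1005 to 0.237 in TEG3 against OEC Ep). Over all genes these settings called 66, 1 and 0 in OEC Lp, against 192 in the main fit. In TEG3 they called 11, 1 and 0, against 136. Where hardly any gene is called, the loss says little about Scn7a.

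The promoter of Scn7a is shown with those of Kcns3, the channel gene that rose in OEC Lp, and Clcn3, a channel gene above the floor on all arrays and called in no comparison. The sequences are RefSeq's, of the GRCr8 build, and are the 250 bases before a transcript start. For Kcns3 and Clcn3, which have 2 starts in the table, the more upstream one was taken. RefSeq's Scn7a gene extends further upstream than the start used here. Capitals mark CpG dinucleotides.
Scn7a: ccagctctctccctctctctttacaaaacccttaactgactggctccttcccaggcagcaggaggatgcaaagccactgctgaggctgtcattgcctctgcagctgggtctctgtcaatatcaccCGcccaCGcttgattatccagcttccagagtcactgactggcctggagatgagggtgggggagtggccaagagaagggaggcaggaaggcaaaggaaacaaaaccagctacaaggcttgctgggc
Kcns3: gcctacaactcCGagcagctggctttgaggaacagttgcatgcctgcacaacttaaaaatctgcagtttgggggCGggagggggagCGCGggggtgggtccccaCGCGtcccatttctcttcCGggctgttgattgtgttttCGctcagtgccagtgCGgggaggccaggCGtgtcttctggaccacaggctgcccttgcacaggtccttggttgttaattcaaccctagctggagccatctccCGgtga
Clcn3: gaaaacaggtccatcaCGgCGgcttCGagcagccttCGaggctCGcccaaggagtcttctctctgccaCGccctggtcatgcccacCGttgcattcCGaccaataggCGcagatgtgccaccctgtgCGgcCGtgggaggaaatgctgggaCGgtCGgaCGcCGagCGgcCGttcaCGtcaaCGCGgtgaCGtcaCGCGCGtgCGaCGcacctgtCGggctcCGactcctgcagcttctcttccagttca
They lie at chr3:71846285-71846534 on the minus strand (Scn7a), chr6:39584106-39584355 on the minus strand (Kcns3) and chr16:34137754-34138003 on the plus strand (Clcn3). The Scn7a window held 2 CpG, that of Kcns3 11 and that of Clcn3 28. The median of 33469 such windows was 5, over 27457 genes whether or not the arrays measured them. Of these windows 28.6% had as few CpG as Scn7a or fewer, 33.6% as many as Kcns3 or more and 6.8% as many as Clcn3 or more. On either strand, the GC box GGGCGG stood once in the windows of Scn7a and Kcns3 and in 30.47% of all windows. The cAMP response element TGACGTCA stood once in that of Clcn3 and in 1.59% of all windows. The SOX core ACAAAG and the TATA box TATAAA were in none of the 3 windows and in 16.3% and 12.93% of all windows. The GC box and the response element each contain 1 CpG, and no window held more than 1 of these motifs. These matches describe the letters and were not tested for function.

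Scn7a lies on chromosome 3 in a row of sodium channel genes, with Scn9a and Scn1a as its next protein-coding neighbours on one side and Scn2a and Scn3a further along. Of these, Scn9a alone exceeded the floor on both types, and it was called in no comparison. Scn9a, a channel of sensory neurons, had 177, 128 and 164 on U34A and 168, 168 and 212 on RAE2.0 in TEG3, OEC Lp and OEC Ep, all near the floors. Scn2a had 197 in TEG3 and was at the floor in OEC Lp and OEC Ep on U34A. Scn3a had 256, 348 and 368 on U34A, and both genes were at the floor on RAE2.0, as Scn1a was on both types. Scn8a, the channel of nodes of Ranvier, had 169 in TEG3, the floor in OEC Lp and 146 in OEC Ep on U34A, and the floor on RAE2.0. Of the beta subunits, Scn3b had 168, 199 and 213 and Scn4b 168, 168 and 177 on RAE2.0, and Scn2b stayed at the floor.

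Other genes moved with Scn7a. Of 10 OEC and Schwann cell markers on both types, 7 fell and 0 rose in OEC Lp against OEC Ep, and the same counts held for TEG3 against OEC Ep. The signals of all listed markers measured on a type summed to 10921 in TEG3, 9452 in OEC Lp and 68460 in OEC Ep for U34A (10 genes), and to 2124, 978 and 91957 for RAE2.0 (11 genes). S100b, a defining OEC marker, had 132, 129 and 6119 on U34A and the floor, the floor and 40360 on RAE2.0. Sox10 was at the floor in OEC Lp on both types and had 201 and 233 in TEG3 on U34A and RAE2.0. These low values go against the OEC label of TEG3 and OEC Lp, although many of the markers were not absent. On U34A 9 of 10 exceeded the floor in TEG3 and 7 in OEC Lp, but on RAE2.0 only 2 of 11 did in either. Ngfr, at the floor in both on RAE2.0, had 3621 in TEG3 and 2569 in OEC Lp on U34A. Microglia and macrophage markers were lower too, with 4 of 7 called lower in either comparison. All those measured on a type summed to 1354, 1409 and 28462 for U34A (10 genes) and to 2202, 3948 and 86721 for RAE2.0 (15 genes), and Aif1 and C1qb were at the floor in TEG3 and OEC Lp. Of 5 neuron markers 3 fell in OEC Lp and 2 in TEG3 against OEC Ep. All neuron markers measured on a type summed to 5351, 1684 and 37922 for U34A (8 genes) and to 8405, 4660 and 44148 for RAE2.0 (13 genes). Contractile markers had 2 of 7 lower in OEC Lp and 1 of 7 in TEG3, oligodendrocyte markers 2 of 5 and 1 of 5, and endothelial markers 0 of 3 in both, against OEC Ep. As a measure of intact RNA, the 3' over 5' GAPDH ratio was 1.54 in TEG3, 1.52 in OEC Lp and 1.96 in OEC Ep for U34A, and 1.02, 0.981 and 1.02 for RAE2.0. The part of these differences in the Scn7a result was not tested. In such bulk samples fewer cells of a type and less RNA per cell cannot be told apart.

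Kcns3 codes for Kv9.3, a silent subunit that forms channels only together with Kv2 subunits. Its signal on U34A was at the floor in TEG3, 542 in OEC Lp and 184 in OEC Ep. On RAE2.0 it was 171, 553 and 174, so that both OEC Lp arrays stood above the other 4. OEC Lp exceeded OEC Ep 3.06-fold (log2 fold 1.61 ± 0.31 SE, n = 2 each, limma adjusted p = 0.0424), with log2 ratios of 1.56 on U34A and 1.67 on RAE2.0. Against OEC Lp, TEG3 had a log2 fold of -1.89 ± 0.31 SE that missed the threshold (limma adjusted p = 0.0594), with log2 ratios of -2.08 on U34A, where TEG3 was at the floor, and -1.69 on RAE2.0. The call in OEC Lp was lost when any 1 of the 6 arrays was left out. The log2 fold stayed between 1.46 and 1.76. Where OEC Lp or OEC Ep keeps a single array, the fit cannot judge a call. Without a TEG3 array both keep 2 arrays, which is in effect a fit on their 4 arrays. That 4-array fit lost the call as well (limma adjusted p = 0.109), and over all genes it called 41. The call was also lost with no floor, no filter or the floor at the 20th percentile (limma adjusted p = 0.128, 0.169 and 0.119) and with no replicate block (0.62). Over all genes these settings called 66, 1, 128 and 0, against 192 in the main fit. With the floor at the 60th percentile the log2 fold of Kcns3 was 0.40 (limma adjusted p = 0.461). Astrocyte markers had 1 gene higher and 1 lower of 5 in the same comparison. All those measured on a type summed to 4138 in TEG3, 15417 in OEC Lp and 10149 in OEC Ep for U34A (7 genes) and to 20703, 104037 and 35669 for RAE2.0 (8 genes). Of 9 fibroblast and meningeal markers 2 rose and 2 fell. All those measured on a type summed to 65274, 118579 and 102106 for U34A (10 genes) and to 41880, 140058 and 137089 for RAE2.0 (12 genes). Their part in the Kcns3 result was not tested.

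**Figure D3:**
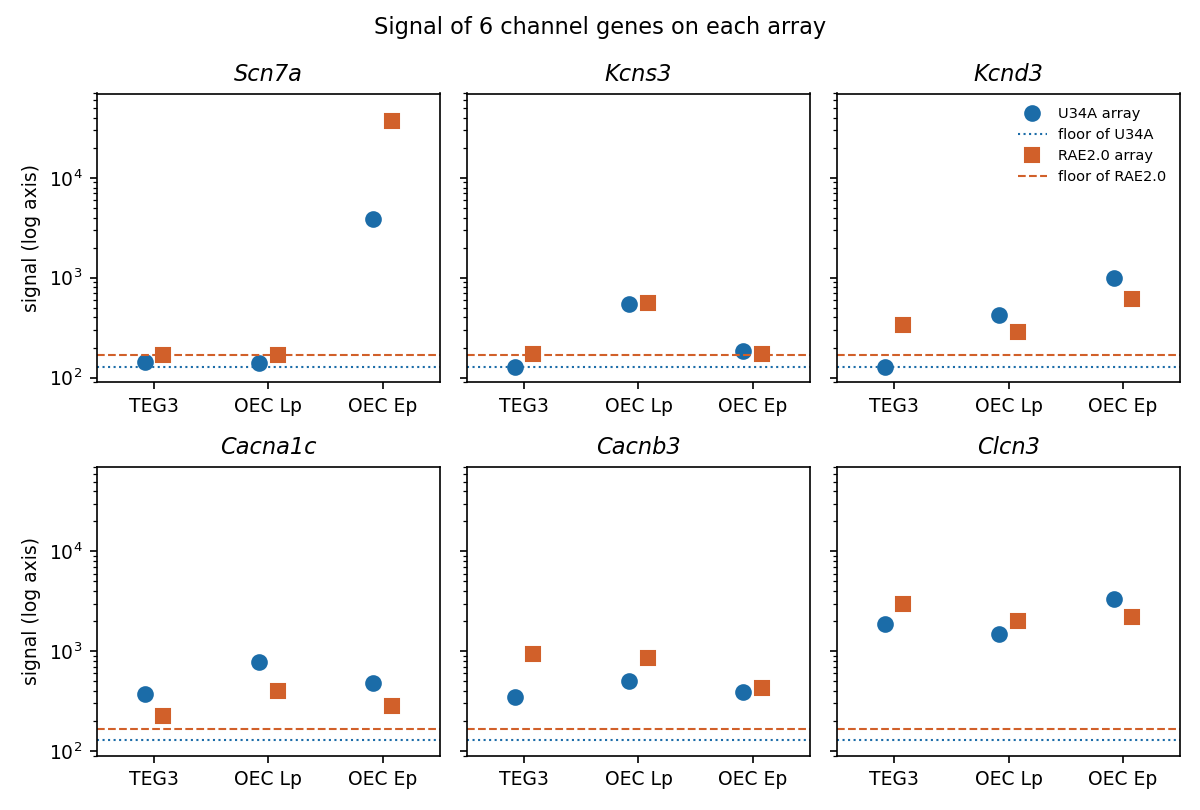
Signal (y axis, log scale) of 6 channel genes in each population (x axis), with 1 point per array, circles for U34A and squares for RAE2.0, and lines at the floors of the types. Scn7a is at 3840 and 37440 on the OEC Ep arrays and near or at the floor on the others, Kcns3 is at 542 and 553 on the OEC Lp arrays and at most 184 elsewhere, and Clcn3 is at 1487 or more on all arrays.

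Among the other potassium channel genes on both types none passed the test. Kcnd3, the pore subunit Kv4.3 of transient A-type currents, was at the floor in TEG3, 423 in OEC Lp and 990 in OEC Ep on U34A. On RAE2.0 it had 339, 288 and 610, as the geometric mean of 3 probe sets, each of which had its highest value in OEC Ep. Both OEC Ep arrays were thus above the others of their type. Its log2 fold was -1.90 ± 0.57 SE in TEG3 against OEC Ep (limma adjusted p = 0.141) and -1.15 ± 0.57 SE in OEC Lp against OEC Ep (limma adjusted p = 0.352). For TEG3 against OEC Ep the types differed, with log2 ratios of -2.95 on U34A and -0.85 on RAE2.0. Kcnk5, a tandem-pore channel that is sensitive to pH, had 183, 203 and 356 on U34A and 202, 327 and 307 on RAE2.0. Its log2 fold in TEG3 against OEC Ep was -0.78 ± 0.35 SE (limma adjusted p = 0.267). Kcnh3, a relative of the ether-a-go-go channel, had 349, 299.5 and 699 on U34A but 476, 919 and 590 on RAE2.0, so its highest population differed between the types.

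The remaining potassium channel genes of the 24 lay closer to the floors. Kcnq3, the partner of other Kcnq subunits in the M-current, had 484 in TEG3, 404 in OEC Lp and 353 in OEC Ep on U34A, but 198 in OEC Lp and the floor in TEG3 and OEC Ep on RAE2.0. Kcnc4, the Kv3.4 channel of fast repolarisation, had 272, 169 and 218 on U34A and 172, 310 and the floor on RAE2.0. Kcna6, the delayed rectifier Kv1.6, had 273, 134 and 261 on U34A and 186, 220 and the floor on RAE2.0. On RAE2.0 OEC Lp was highest for all 3 genes, and on U34A for none of them. Kcnab2, a cytoplasmic beta subunit of Kv1 channels, had 276, 238 and 268 on U34A and exceeded the floor in OEC Ep alone on RAE2.0, with 214. Kcnc1, Kcnh4, Kcnj16 and Kcnj4 were at or near the floor, with at most 246 on U34A and at most 175 on RAE2.0.

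Calcium channel genes on both types had no call either. Cacna1c, the pore subunit Cav1.2 of L-type channels, had 374 in TEG3, 776 in OEC Lp and 477 in OEC Ep on U34A, and 225, 397 and 285 on RAE2.0. OEC Lp was highest and TEG3 lowest on either type. Its log2 fold in TEG3 against OEC Lp was -0.94 ± 0.29 SE (limma adjusted p = 0.229, unadjusted p = 0.0207), and in OEC Lp against OEC Ep it was 0.59 ± 0.29 SE (limma adjusted p = 0.35). Cacnb3, a cytoplasmic beta subunit, had 345, 505 and 393 on U34A and 941, 849 and 424 on RAE2.0. Its log2 fold in OEC Lp against OEC Ep was 0.68 ± 0.40 SE (limma adjusted p = 0.444). Cacna2d1, the alpha2-delta subunit bound by gabapentin, had 292 in TEG3, 143 in OEC Lp and the floor in OEC Ep on U34A, and 257, the floor and 222 on RAE2.0. Its log2 fold in TEG3 against OEC Lp was 0.82 ± 0.35 SE (limma adjusted p = 0.352), with log2 ratios of 1.03 on U34A and 0.61 on RAE2.0. Cacna1a, the pore subunit of P/Q-type channels, had 281, 283 and 134 on U34A and 216, 220 and 247 on RAE2.0, so OEC Ep was lowest on U34A and highest on RAE2.0. Its passing U34A probe sets disagreed, with 617, 625 and 117 in 1 and 83, 70 and 139 in the other. Cacna1b, the N-type pore subunit, had 280, 238 and 308 on U34A and 190, 226 and the floor on RAE2.0. Cacnb1, a beta subunit best known from skeletal muscle, had 394, 383 and 401 on U34A and 442, 311 and 211 on RAE2.0. The types therefore ordered the populations differently for each of these 3 genes. Cacnb2, a beta subunit of the heart, had 196, 198 and the floor on U34A and the floor, 292 and 212 on RAE2.0. Cacna1h, a T-type pore subunit, had 213 in OEC Ep and the floor elsewhere on U34A, and 188, the floor and 207 on RAE2.0. Cacna1d, another L-type pore subunit, exceeded the floor with 183 in OEC Ep on U34A alone.

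Of the Clcn genes, 7 of 7 exceeded the floor in at least 1 population on RAE2.0 and 2 of 5 on U34A. Clcn3, a chloride-proton exchanger of endosomes, had 1854 in TEG3, 1487 in OEC Lp and 3340 in OEC Ep on U34A. On RAE2.0 it had 2985, 2012 and 2201 as the geometric mean of 4 probe sets, which ranged from 681 to 5441. OEC Ep was thus highest on U34A and TEG3 on RAE2.0. Its log2 fold was -0.65 ± 0.41 SE in OEC Lp against OEC Ep and -0.20 ± 0.41 SE in TEG3 against OEC Ep (limma adjusted p = 0.467 and 0.82). Clcn4, a relative of Clcn3, was at the floor in TEG3 and OEC Lp and 160 in OEC Ep on U34A, and had 216, 184 and 312 on RAE2.0 (log2 fold in OEC Lp against OEC Ep -0.54 ± 0.30 SE, limma adjusted p = 0.418). Its RAE2.0 probe sets disagreed, with 108, 202 and 190 in 1 and 278, 77 and 512 in the other. On RAE2.0 alone, Clcn7, the exchanger of lysosomes and of the osteoclast border, had 528, 657 and 429. Clcn6, of late endosomes, had 500, 377 and 512. Clcn2, a plasma membrane chloride channel, had 213, 506 and 173, so OEC Lp stood apart. Clcn5, an endosomal exchanger of kidney tubules, had 213 in OEC Lp and the floor elsewhere, and Clcn1, the chloride channel of skeletal muscle, had 216 in OEC Ep.

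Over the 24 genes on both types, those that did not pass had log2 folds from -1.15 to 0.68 in OEC Lp against OEC Ep, from -1.90 to 0.70 in TEG3 against OEC Ep and from -1.89 to 0.82 in TEG3 against OEC Lp. Their median over all 24 was -0.24, -0.18 and 0.00 in this order, where all genes had 0.11, 0.04 and -0.01. The types gave the same sign for 14 of 22 channel genes in OEC Lp against OEC Ep (63.6%, against 66.1% of all genes), leaving out ratios of 0. The counts were 13 of 22 in TEG3 against OEC Ep (59.1%, against 69.3%) and 8 of 16 in TEG3 against OEC Lp (50%, against 61.4%). Across the 24 genes the log2 ratios of the types had a Pearson r of 0.834 in OEC Lp against OEC Ep, which was 0.449 without Scn7a. It was 0.775 in TEG3 against OEC Ep (0.323 without Scn7a) and 0.377 in TEG3 against OEC Lp (0.376), where all genes had 0.63, 0.678 and 0.516. These values are across genes that share arrays and are descriptions. No gene had at least a 4-fold ratio in opposite directions on the types.

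**Figure D4:**
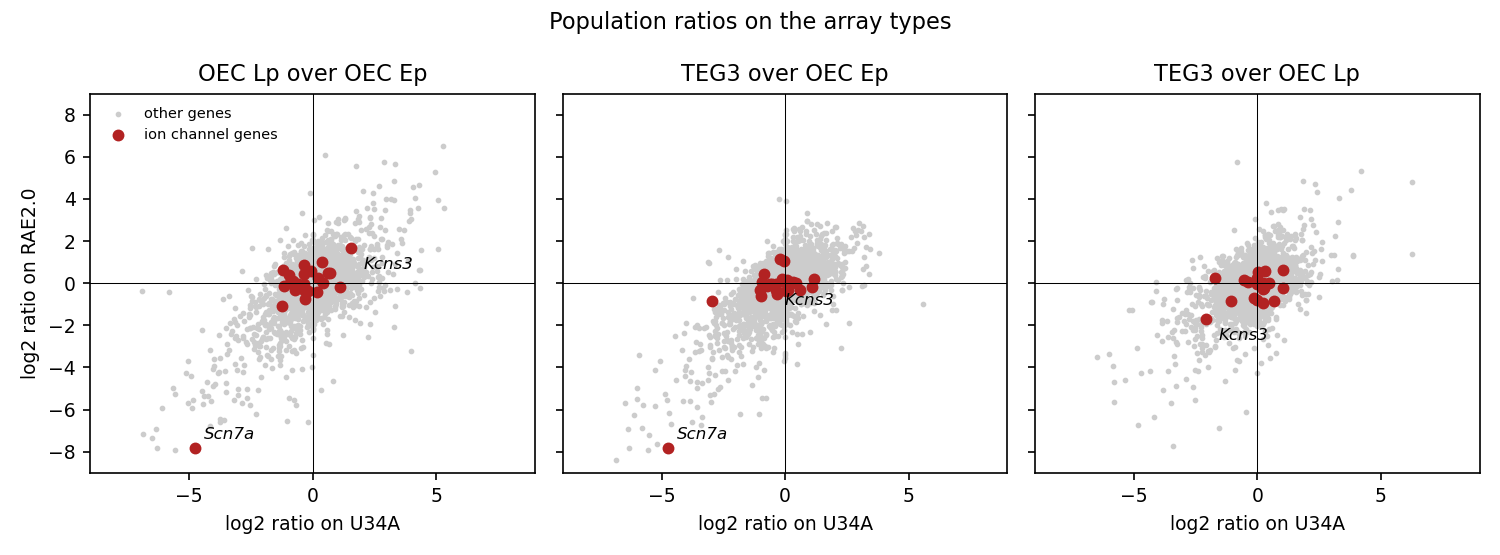
Log2 ratio of each gene on RAE2.0 (y axis) against that on U34A (x axis) for OEC Lp over OEC Ep, TEG3 over OEC Ep and TEG3 over OEC Lp, with the 24 channel genes in red and the other genes on both types in grey. Scn7a lies at -4.76 and -7.80 in the left panel, far from the other channel genes, and Kcns3 lies at 1.56 and 1.67.

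Genes above the floor on 1 type have a single array per population and no test. On RAE2.0 alone, 4 of 35 channel genes had at least 2-fold more signal in OEC Lp than in OEC Ep (11.4%, against 10.1% of all genes on that type alone) and 1 was lower (2.86%, against 9.52%). The 4 higher genes were Clcn2, Kcnj6, Kcnk6 and Kcnq5. Kcnq5, a subunit of the M-current that limits repetitive firing, had 357 in TEG3, 618 in OEC Lp and 294 in OEC Ep, and all 3 of its probe sets were highest in OEC Lp. Kcnk6, the tandem-pore channel TWIK-2, had 287, 410.5 and 194, and both probe sets were highest in OEC Lp. Kcnj6, a G protein-activated inward rectifier, had the floor, 359 and the floor, but only 1 of its 4 probe sets exceeded the floor. Kcne4, an auxiliary subunit that inhibits Kcnq1 channels, was the gene that was lower, with the floor in TEG3 and OEC Lp and 589 in OEC Ep, at least 3.51-fold lower in both. Its signals under the floor were 147 in TEG3 and 18 in OEC Lp.

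Set against OEC Ep on RAE2.0 alone, TEG3 had 1 of 35 that was at least 2-fold higher (12.6% of all genes) and 1 lower (9.34%). The higher gene was Kcnj14, an inward rectifier of the Kir2 group, with 351 in TEG3, 249 in OEC Lp and the floor in OEC Ep, and the lower one was Kcne4. Set against OEC Lp, TEG3 had 0 that were higher (9.75% of all genes) and 4 lower (8.03%): Clcn2, Kcnd1, Kcnj6 and Kcnmb4. Kcnd1, the A-type subunit Kv4.1, was at the floor in TEG3, with 551 in OEC Lp and 305 in OEC Ep. Kcnmb4, an auxiliary subunit of large-conductance calcium-activated channels, had 488, 1002 and 549, 2.05-fold lower in TEG3 than in OEC Lp, although its pore subunit gene Kcnma1 was at the floor on both types. Except for Kcne4 and Kcnj14, the 8 genes of RAE2.0 alone that were at least 2-fold apart had their highest value in OEC Lp. The like share over all genes was not computed, so this cannot be read as a trait of channel genes. OEC Lp also had the most probe sets above the floor on RAE2.0 (61.8%, against 59.1% in TEG3 and in OEC Ep).

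On U34A alone, 1 of 23 channel genes had at least 2-fold more signal in OEC Lp than in OEC Ep (3.53% of all genes on that type alone) and 2 were lower (6.39%). Cacna1g, the T-type calcium channel Cav3.1, had 600 in TEG3, 1011 in OEC Lp and 412 in OEC Ep. Kcna5, the channel Kv1.5 of heart and smooth muscle, had 133, 137 and 371. Scn4a, the sodium channel of skeletal muscle, had 256, 137 and 311. Between TEG3 and OEC Ep, 0 were higher in TEG3 (5.71%) and 3 lower (7.23%): Kcna5, Kcnh5 and Kcnn1. Kcnh5, an ether-a-go-go channel, had the floor, 281 and 473. Kcnn1, a small-conductance calcium-activated channel, had 191, 960 and 519, and in TEG3 against OEC Lp it and Kcnh5 were the 2 lower genes of 23 (4.37%), with 0 higher (8.07%). All 5 of these genes stayed at the floor on RAE2.0. Kcnj10, the Kir4.1 channel of astrocytes and other glia, had 174 in TEG3 and the floor elsewhere on U34A, and stayed at the floor on RAE2.0. Kcnh2, the ERG channel of the heart, had 501, 763 and 475 on U34A and the floor on RAE2.0.

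**Figure D5:**
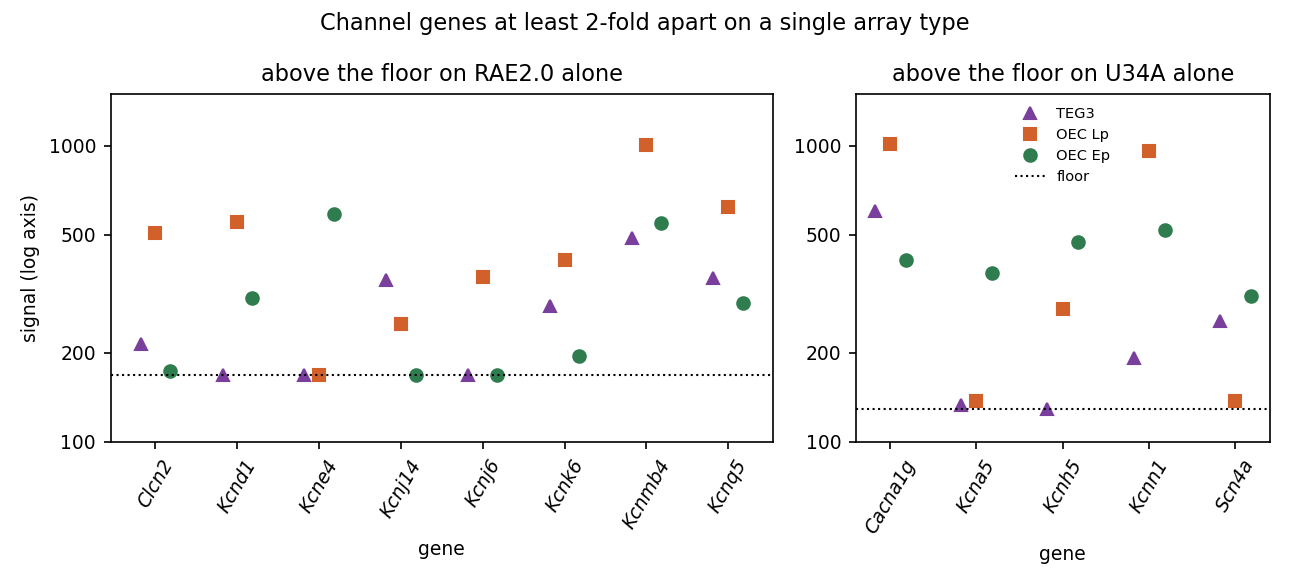
Signal (y axis, log scale) in TEG3 (triangles), OEC Lp (squares) and OEC Ep (circles), 1 array each, of the channel genes with at least a 2-fold ratio between any 2 populations, for those above the floor on RAE2.0 alone (left) or U34A alone (right). The dotted line is the floor, and OEC Lp is highest for 6 of the 8 genes on the left and 2 of the 5 on the right. The like shares over all genes were not computed.

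Ion transport genes outside the family were described from lists. Of 13 ion pumps and exchangers on both types, 1 fell and 0 rose when either OEC Lp or TEG3 was set against OEC Ep, and both times it was Fxyd1. It codes for phospholemman, a regulator of the sodium pump, and in the fit it was 7.33-fold lower in OEC Lp (log2 fold -2.87 ± 0.38 SE, limma adjusted p = 0.0162) and 9.81-fold lower in TEG3 (log2 fold -3.29 ± 0.38 SE, limma adjusted p = 0.0164). Its log2 ratios on U34A and RAE2.0 were -3.14 and -2.61 in OEC Lp and -2.97 and -3.62 in TEG3. Some dim signals of OEC Lp and of TEG3 were raised to the floor, so the folds of Fxyd1 may be larger than fitted. Between TEG3 and OEC Lp limma called 0 of the 13. Of 11 other cation channels, 3 other chloride channels and 6 channel anchors and partners on both types, limma called 0 in any comparison. The median log2 fold of the pumps and exchangers was 0.32 in OEC Lp and -0.45 in TEG3 against OEC Ep, where all genes had 0.11 and 0.04. That of the other cation channels was 0.20 and -0.22, that of the other chloride channels -0.09 and 0.08, and that of the anchors and partners -0.47 and -0.34. Chosen after their values were seen, the lowest p among them were those of Itpr1, the calcium release channel of the endoplasmic reticulum (log2 fold in TEG3 against OEC Ep 1.85 ± 0.35 SE, limma adjusted p = 0.051), and Ank3, ankyrin G, which anchors sodium channels (-1.93 ± 0.39 SE, limma adjusted p = 0.0593).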

How the data were processed

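The authors deposited linear signal intensities, made with MAS5 per the submitters' processing notes, and the series' design text names Microarray Suite version 5.0 with a filter on probe sets whose setting is not given. No detection calls were used. Within a type, arrays were scaled to a common trimmed mean (2% off either end), and 59 control probe sets of U34A and 57 of RAE2.0 were left out. A probe set was kept if any array of its type was above the floor, as 6360 of 8799 and 22185 of 31099 were. A gene's value is the mean log2 signal, floored, of its passing probe sets with a single symbol in the platform annotation, and a printed signal is its antilog. A fitted fold averages both types with dim signals raised to the floor. Where only signals of the lower population were floored, as for Scn7a against OEC Ep, its size is a lower bound. For genes of 1 type, "at least" marks a ratio whose dimmer side was floored.

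Using limma 3.58.1 (R 4.3.3), a model was fitted over the 3131 genes measured on both types, with terms for population and array type and all 6 arrays. Array type is also the replicate number and pairs the arrays by design, so it is the replicate block. The residual, which is the disagreement of the types, has 2 degrees of freedom and the prior 3.56. The procedure was tested on simulated data. The few arrays limit the precision. Genes above the floor on 1 type have values only, and all values from RAE2.0 alone or U34A alone rest on 1 array.

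Named genes were those called, the 6 others with the lowest p, the largest ratios on 1 type, the genes with the highest signals and a list of well-known channels. The members, marker and pathway lists were chosen with earlier results of these data known. The alternatives were other floors, filters, scalings and probe set rules, fits without the block or on 4 arrays, and leaving out each array.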

Additional observations from a re-analysis of the deposited data

How the results depend on the processing

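Of the 2 channel genes called in OEC Lp against OEC Ep, 1 (Scn7a) was called with the floor at the 20th or 60th percentile. The count was 0 with no floor, with no filter on dim probe sets, with only probe sets above the floor on all 3 arrays (where 6 channel genes were tested and neither Scn7a nor Kcns3 was among them), with the 4 arrays of the populations compared, and with no replicate block. In TEG3 against OEC Ep, Scn7a was not called under these same 5 settings (count 0), and was called under both other floors. Over all genes the main fit called 192 in OEC Lp and 136 in TEG3 against OEC Ep. Those 5 settings called, in this order, 66, 1, 77, 41 and 0 in OEC Lp. In TEG3 they called 11, 1, 86, 0 and 0. The lower and the higher floor called 128 and 164 in OEC Lp and 102 and 137 in TEG3. A setting that calls few genes of any kind cannot show a loss particular to channel genes. The other scalings and the highest probe set per gene changed no count of calls. Without each array in turn no channel gene was called. Where a compared population keeps a single array, the fit cannot judge a call, since that array is taken to vary as the rest do. Leaving out an array of the population not compared is in effect the fit on the 4 arrays compared. There the losses stand, beside the counts over all genes given above for that fit. Scn7a kept its direction in every alternative that measured it, with log2 folds from -7.81 to -4.76 in OEC Lp and from -9.90 to -4.74 in TEG3 against OEC Ep. Kcns3 kept its direction in OEC Lp, with log2 folds from 0.40 to 1.76. Without the replicate block their adjusted p by limma was 0.162 and 0.62 in OEC Lp and 0.176 for Scn7a in TEG3 against OEC Ep. The number of channel genes above the floor was 77 and 102 on U34A and RAE2.0 with the floor at the 20th percentile and 21 and 17 at the 60th. Of genes on RAE2.0 alone, those at least 2-fold apart numbered 11, 7 and 14 with the lower floor, 0, 0 and 1 with the higher floor and 19, 14 and 19 with no floor, first for OEC Lp and then for TEG3 against OEC Ep, and last for TEG3 against OEC Lp. The first was 3 after quantile normalization, and the second was 1 with no filter and 0 with only probe sets above the floor on all 3 arrays. Shares over all genes were not computed for these counts above the floor or at least 2-fold apart. The counts therefore cannot be read as a trait of channel genes. The cause of these shifts was not tested beyond the change of genes that each setting makes. Signals near the floor limit most channel genes, so that low ratios among them cannot be resolved here.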

Other observations

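Probe sets of a channel gene did not always give the same picture. For Scn4a on U34A, a probe set had 509 in TEG3, 127 in OEC Lp and 600 in OEC Ep, while another to the same transcript record had 120, 147 and 161, and the RAE2.0 probe set had 18, 32 and 30. For Kcnd3 on U34A, 1 of 3 probe sets exceeded the floor, with 108, 423 and 990. These genes were chosen after their values were seen.

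The promoter windows of the channel genes were richer in CpG than RefSeq's windows at large. Over 97 windows of 86 of the 120 genes the median was 12, against 5 over all 33469 windows. Those are of 27457 genes, whether or not the arrays measured them, so the background is not that of the array genes. The GC box GGGCGG was in 50.52% of the channel gene windows, against 30.47% of all. No test was made of these counts.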
